A study of Mus musculus with 16 samples.

Results

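The enzymes that supply and spend reducing power against peroxides were followed by RNA-seq in the mouse mammary cancer line 6DT1. The set comprised 44 listed genes, chosen by function: peroxide-removing enzymes, superoxide dismutases, the thioredoxin and glutathione systems, NADPH-making enzymes and the regulators of the transcription factor NRF2. Of these, 43 of the 25745 genes of the count table were measured, and 1 further listed gene is not analysed here. The 16 libraries form 4 groups of 4. CLIC4 belongs to the chloride intracellular channel proteins. Lentivirus cells carried a virus built for its expression and were left untreated (libraries 1 to 4) or given 1 µM H2O2 for 24 h (libraries 5 to 8). Empty-vector cells carried the vector with no insert and were likewise untreated (libraries 9 to 12) or treated (libraries 13 to 16). All 4 groups share the FVB/N1 strain background given in the labels. The sample descriptions call the empty-vector cells a CLIC4 knockout and the lentivirus cells wild type, while the text on the series speaks of vectors only, so the groups are named here by vector. The sources used here do not say which promoter drives the vector or how many clones each kind of cell came from. The labels do not say whether libraries of 1 group come from separate cultures, so a p-value here reflects only the spread between libraries, which may be technical.

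Peroxiredoxins, glutathione peroxidases and catalase break down hydrogen peroxide, and some peroxiredoxins and glutathione peroxidases also act on lipid peroxides. Most peroxiredoxins are recharged by thioredoxin and thioredoxin reductase, and many glutathione peroxidases by glutathione and glutathione reductase. Both reductases draw their electrons from NADPH, which the pentose phosphate pathway, malic enzyme and isocitrate dehydrogenase make. NRF2 (Nfe2l2), held down by KEAP1 and opposed by BACH1, switches on many of these genes through antioxidant response elements, which small Maf proteins help it bind.

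Total counts ran from 47.1 M to 61.9 M per library, and the 43 genes took 0.513% to 0.552% of them. Clic4 itself was at 229 ± 10.4 TMM-scaled CPM (mean ± SD, n = 4) in untreated lentivirus cells and 243 ± 12.9 CPM in treated ones, against 66.3 ± 47.8 and 42.4 ± 2.35 CPM in untreated and treated empty-vector cells. Library 11, from untreated empty-vector cells, differed from its group. It held 138 CPM of Clic4 against 41.2 to 44.7 in libraries 9, 10 and 12. Its highest correlation with these was 0.928 over genes, and within groups the other pairs had correlations of at least 0.997. Its share of structural RNA was 0.727% of counts, beside 0.0172% to 0.0391% in the other 15 libraries. Its TMM factor was 0.721, beside 0.986 to 1.04 in the other 15, so the scaling raised its CPM relative to theirs. The biological coefficient of variation was 23.1% with all 16 libraries and 5.28% without library 11, so many results that rest on it are given both ways. Of the epithelial keratins, Krt8 averaged 423 CPM in untreated lentivirus cells and 553 CPM in untreated empty-vector cells. Epcam and Cdh1 averaged 0.0221 and 0.0477 CPM in the former and 3.24 and 0.404 CPM in the latter, whose means include library 11. In treated cells they averaged 0.00451 and 0.0487 CPM with lentivirus and 0.00883 and 0.0305 CPM with empty vector, so neither was clearly raised there. Summed over the 7 epithelial markers with a value, levels ran from 565 to 618 CPM in untreated lentivirus and from 939.8 to 1399 CPM in untreated empty-vector libraries. The 5 immune markers ran from 77.6 to 82.9 CPM and from 223 to 371 CPM, mostly Cd68. In untreated cells Ptprc averaged 0.0317 CPM with lentivirus and 0 with empty vector, and Adgre1 averaged 0 with both. Itgam averaged 0.0804 CPM with lentivirus and 3.91 CPM with empty vector untreated, and 0.0173 and 4.63 CPM treated. Lyz2 averaged 0.00538 and 0.186 CPM untreated. For the 5 endothelial markers the ranges were 83.6 to 88.4 and 4.95 to 9.43 CPM, mostly Cdh5, for the 6 fibroblast markers 13.6 to 15.0 and 18.8 to 22.0 CPM, and for the 2 erythroid markers 0 to 0.0354 and 0 to 1.22 CPM. Treated lentivirus and empty-vector libraries ran at 580.3 to 609 and 921 to 1029 CPM for epithelial, 80.9 to 92.6 and 228 to 258 for immune, 86.2 to 90.1 and 5.03 to 5.77 for endothelial and 15.4 to 18.2 and 17.3 to 20.5 for fibroblast markers, with the erythroid ones at 0. The first 3 lists moved with the vector without overlap, and their part in the results below was not tested. In bulk RNA, fewer cells of a type and less RNA per cell cannot be told apart.

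The best known regulatory sequence of such genes is the antioxidant response element, whose core was searched as TGACNNNGC on both strands of RefSeq promoters (GRCm38.p6), each running from 250 bases before to 50 after a gene's start. Its first letters are shared with AP-1 sites, so a match does not tell these elements apart. Of the 43 genes, 38 had a promoter in the table, and 10 of these (26.3%) held a match: G6pdx, Gclm, Me1, Msrb2, Nfe2l2, Pgd, Prdx1, Sod1, Srxn1 and Txnrd1. Among all 27025 genes of the table the share was 14.0%. A match is a description of letters and not of binding. Among members called higher in untreated empty-vector cells, 5 of 12 with a promoter held a match, among those called lower 2 of 9, and among the rest 3 of 17. The promoters of 3 genes that were higher and of 2 that were lower in empty-vector cells are shown, 5′ to 3′ on the gene's strand, because matches stood on both sides. Capitals mark the match, which in all 5 lies on the opposite strand. They are Srxn1 at chr2:152105274-152105573 (plus strand), Txnrd1 at chr10:82858956-82859255 (plus), G6pdx at chrX:74428831-74429130 (minus), Gclm at chr3:122245307-122245606 (plus) and Msrb2 at chr2:19371386-19371685 (plus). Where a gene had several promoters in the table, one with a match is shown.
Srxn1: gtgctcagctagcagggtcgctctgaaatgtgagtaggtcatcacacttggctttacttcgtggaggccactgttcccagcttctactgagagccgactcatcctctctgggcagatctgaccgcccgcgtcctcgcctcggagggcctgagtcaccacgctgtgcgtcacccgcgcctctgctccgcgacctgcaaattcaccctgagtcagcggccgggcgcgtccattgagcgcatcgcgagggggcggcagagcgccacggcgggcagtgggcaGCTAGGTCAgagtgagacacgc
Txnrd1: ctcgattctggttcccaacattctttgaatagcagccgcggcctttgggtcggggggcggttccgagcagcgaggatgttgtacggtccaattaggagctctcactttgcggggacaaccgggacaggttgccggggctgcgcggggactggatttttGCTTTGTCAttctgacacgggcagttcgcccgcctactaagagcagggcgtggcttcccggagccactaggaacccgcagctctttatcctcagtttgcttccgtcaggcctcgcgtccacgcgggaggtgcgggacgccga
G6pdx: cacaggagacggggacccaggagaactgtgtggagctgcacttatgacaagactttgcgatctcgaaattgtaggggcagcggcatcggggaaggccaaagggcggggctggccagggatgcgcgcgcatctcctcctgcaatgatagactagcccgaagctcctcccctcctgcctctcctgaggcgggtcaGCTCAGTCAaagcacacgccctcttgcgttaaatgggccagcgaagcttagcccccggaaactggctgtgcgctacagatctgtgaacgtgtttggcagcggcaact
Gclm: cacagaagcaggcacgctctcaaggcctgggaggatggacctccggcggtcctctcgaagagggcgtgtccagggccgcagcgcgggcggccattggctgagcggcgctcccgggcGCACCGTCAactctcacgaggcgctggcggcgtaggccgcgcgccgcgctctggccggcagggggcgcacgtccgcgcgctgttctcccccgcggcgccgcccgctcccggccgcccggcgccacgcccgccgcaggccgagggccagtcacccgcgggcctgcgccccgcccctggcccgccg
Msrb2: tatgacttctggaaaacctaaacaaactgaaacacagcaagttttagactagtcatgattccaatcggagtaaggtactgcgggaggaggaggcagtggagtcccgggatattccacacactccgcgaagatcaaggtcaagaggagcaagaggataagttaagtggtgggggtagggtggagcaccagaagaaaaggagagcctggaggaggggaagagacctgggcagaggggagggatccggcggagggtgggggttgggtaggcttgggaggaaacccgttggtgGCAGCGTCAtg

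Counted from the base at the gene's start, the match began at 28 in Srxn1, -92 in Txnrd1, -57 in G6pdx, -134 in Gclm and 39 in Msrb2. The windows of Nqo1 and Gss, both higher in empty-vector cells, did not hold these letters.

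In untreated cells, empty vector minus lentivirus, the enzymes moved in both directions. Higher in empty-vector cells were the peroxiredoxins Prdx1 and Prdx4, glutathione reductase, glutathione synthetase, cytosolic thioredoxin and its reductase, sulfiredoxin, the NADPH-making enzymes G6pdx, Me1 and Idh1, transaldolase, the repressor Bach1 and the quinone reductase Nqo1. Lower were catalase, the methionine sulfoxide reductases Msra, Msrb2 and Msrb3, the mitochondrial enzymes Prdx3, Sod2 and Txnrd2, Prdx2, the glutamate-cysteine ligase subunit Gclm and the glutaredoxin Glrx. With 16 libraries, 13 of 43 members (30.2%) were called higher and 10 (23.3%) lower by edgeR's quasi-likelihood test at an adjusted p under 0.05, beside 29% and 24.3% of all 14445 genes tested. Without library 11 the counts were 16 (37.2%) and 18 (41.9%), beside 37% and 37.3% of 14602 genes. These shares lie close to those of all genes, and the median log2 change of members was 0.12 against 0.03 over all genes, or -0.02 for both without library 11. At least 2-fold, 2 members were higher and 2 lower (12.1% and 9.81% of all genes), and without library 11, 2 and 3 (10.1% and 10.3%). The groups did not overlap for 13 members that were higher and 12 that were lower with 16 libraries, where 24% and 25.6% of all genes behaved so, and for 16 and 17 without library 11, where 36.2% and 36% did.

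In cells given H2O2, 11 members (25.6%) were higher and 8 (18.6%) lower in empty-vector than in lentivirus cells with 16 libraries, beside 22.1% and 20% of all genes tested. Without library 11, which belongs to neither treated group but sets the shared estimate of the spread, the counts were 16 (37.2%) and 17 (39.5%), beside 36.6% and 37.2%. The median log2 change was -0.01 for members and for all genes. At least 2-fold, 3 were higher and 3 lower (9.63% and 7.59% of all genes; 3 and 3 beside 10.3% and 8.62% without library 11). Treated groups did not overlap for 14 members that were higher and 17 that were lower, as for 34.6% and 34.8% of all genes. The untreated and treated comparisons share no library. With 16 libraries 9 members were higher in both (G6pdx, Gsr, Gss, Nqo1, Prdx4, Srxn1, Taldo1, Txn1 and Txnrd1), 7 were lower in both (Cat, Gclm, Glrx, Msrb2, Msrb3, Prdx2 and Sod2), and 0 were called in opposite directions. These are 20.9%, 16.3% and 0% of the 43 members, beside 19.5%, 16.3% and 0% of all genes tested. Without library 11 the counts were 15 (34.9%), 17 (39.5%) and 0, beside 33.3%, 32.3% and 0.205% of all genes. Each of the 23 untreated and 19 treated calls made with 16 libraries was also made, in the same direction, without library 11.

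**Figure D1:**
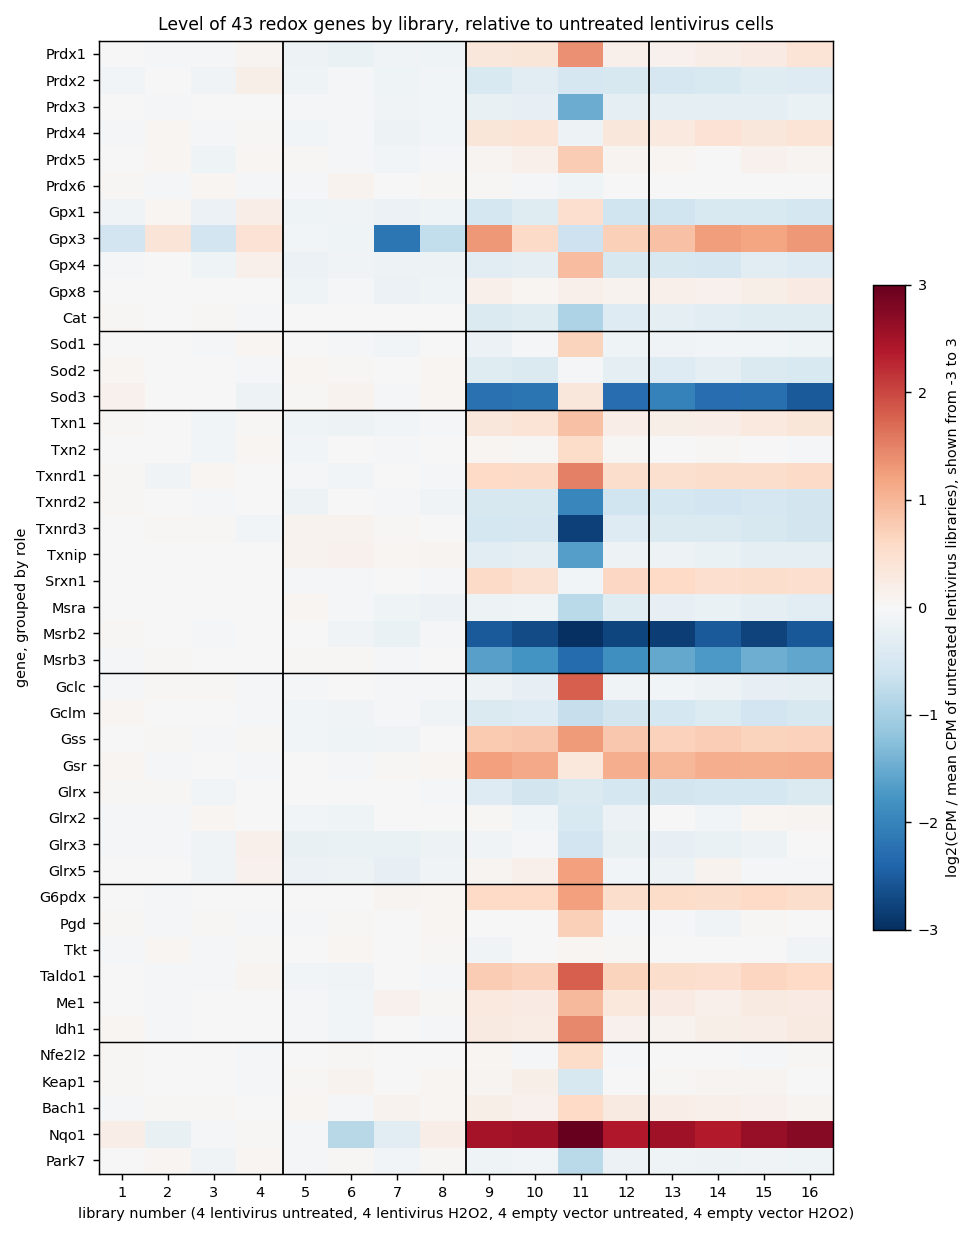
Each row is 1 of the 43 genes, ordered by role, and each column 1 of the 16 libraries by group; colour is the log2 ratio of CPM to the mean of untreated lentivirus cells, on a scale from -3 to 3. Nqo1 and Gsr are high and Msrb2, Msrb3 and Sod3 low in empty-vector libraries, except that Sod3 in library 11 lies above the lentivirus libraries. Treated and untreated columns of a vector otherwise look alike. Library 11 differs from its neighbours in many rows, with Msrb2 and Nqo1 there beyond the ends of the scale.

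Levels of different genes were compared per length, in FPKM (corrected for gene length and depth), in untreated lentivirus cells. The lipid peroxidase Gpx4 (482 ± 38.9 FPKM, mean ± SD, n = 4) and the peroxiredoxin Prdx1 (468 ± 13.5) stood at the top and did not differ beyond their spread, followed by Sod1 (397 ± 12.2). Gpx1 (326 ± 41.7), Prdx6 (324 ± 20.7) and Txn1 (315 ± 12.8) came next and lay within each other's spread. In the middle of the order were Prdx4 (73.4 ± 2.86), G6pdx (41.4 ± 0.724), Cat (40.6 ± 1.49), Gclm (30.5 ± 1.72), Txnrd1 (28.4 ± 1.63), Gsr (22.4 ± 1.01) and Msrb2 (22.0 ± 0.648); G6pdx and Cat, and Gsr and Msrb2, were neighbours within their spread. Gss (11.3 ± 0.357) and Gclc (8.67 ± 0.225) were lower. At the bottom stood Msrb3 (5.04 ± 0.187), Msra (3.66 ± 0.0763), the extracellular dismutase Sod3 (1.27 ± 0.115), Nqo1 (0.752 ± 0.0911) and, near the detection limit, Gpx3 (0.06 ± 0.0231).

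Among the 11 peroxide-removing enzymes, catalase and Prdx2 were lower in empty-vector cells, and Prdx1 and Prdx4 higher. Catalase is the peroxisomal enzyme that splits hydrogen peroxide. Cat (mm10 chromosome 2, 103453849 to 103485160) held 99.2, 96.3, 98.7 and 94.0 CPM in untreated lentivirus libraries 1 to 4, and 71.4, 75.0, 50.9 and 74.7 CPM in untreated empty-vector libraries 9 to 12. The treated libraries held 97.9, 97.7, 96.5 and 98.0 CPM with lentivirus and 79.3, 77.9, 75.7 and 75.7 CPM with empty vector. Every empty-vector library lay below every lentivirus library, and library 11 was the lowest of all. The untreated log2 difference was -0.51 ± 0.0945 (SE, edgeR adjusted p = 4.26e-04) with 16 libraries and -0.40 ± 0.0307 (SE, edgeR adjusted p = 4.91e-10) without library 11. The treated one was -0.34 ± 0.0943 (SE, edgeR adjusted p = 0.00951), or adjusted p = 1.40e-09 without library 11. Prdx2, a cytosolic peroxiredoxin abundant in red cells, fell as well. Its levels were 246, 258, 240.2 and 289.7 CPM against 188, 203, 182 and 184 CPM in untreated cells, and 236 to 251 against 181 to 199.8 CPM in treated cells, again with no overlap. The log2 differences were -0.45 ± 0.0634 (SE, edgeR adjusted p = 4.18e-05) untreated and -0.34 ± 0.0633 (SE, edgeR adjusted p = 5.44e-04) treated.

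The cytosolic peroxiredoxin Prdx1 (mm10 chromosome 4, 116685544 to 116700822) was higher in empty-vector cells. Its untreated libraries held 490.5, 476, 468 and 512 CPM with lentivirus and 619.9, 623, 1252 and 544 CPM with empty vector, where library 11 reached about 2.10 times the mean of the other 3. Treated libraries held 439.8, 423, 449.5 and 442 against 531, 557, 580.2 and 650.2 CPM, and neither pair of groups overlapped. The untreated log2 difference was 0.64 with 16 libraries (edgeR adjusted p = 0.0137) and 0.29 without library 11 (adjusted p = 2.53e-04). The treated one was 0.40 with 16 libraries (edgeR adjusted p = 0.118) and 0.40 without library 11 (adjusted p = 3.88e-06). Prdx4, the peroxiredoxin of the endoplasmic reticulum, ran at 54.4 to 59.3 CPM in untreated lentivirus libraries and was 73.0, 75.9 and 71.4 CPM in libraries 9, 10 and 12, but 51.3 CPM, below every untreated lentivirus library, in library 11. Its treated libraries ran at 51.1 to 55.3 against 69.2 to 76.0 CPM, and the log2 difference was 0.26 with 16 libraries (edgeR adjusted p = 0.0367) and 0.37 without library 11 (adjusted p = 1.12e-07) untreated and 0.45 ± 0.0974 (SE, edgeR adjusted p = 0.00165) treated. The untreated call on Prdx4 with 16 libraries was lost when library 1, 2, 3, 4, 9, 10 or 12 was left out, with log2 differences from 0.20 to 0.28. Mitochondrial Prdx3 was lower. The log2 difference was -0.47 with 16 libraries (edgeR adjusted p = 0.0499), a call lost when any library other than 9 to 12 was left out (log2 -0.49 to -0.47). It was -0.25 without library 11 (adjusted p = 4.47e-07), and in treated cells -0.19 with 16 libraries (edgeR adjusted p = 0.475) and -0.19 without library 11 (adjusted p = 6.71e-06). Prdx3 held 110.1 to 115 CPM in untreated lentivirus libraries, 92.9 to 97.5 in libraries 9, 10 and 12 and 40.5 in library 11.

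For the glutathione peroxidases Gpx4 and Gpx1 the untreated values depended on library 11. Gpx4, which reduces lipid peroxides in membranes, held 323, 342, 308 and 379 CPM in untreated lentivirus libraries and 266, 276 and 241 CPM in libraries 9, 10 and 12, all lower, while library 11 held 637 CPM, the highest of all 16. Its log2 difference was 0.07 with 16 libraries (edgeR adjusted p = 0.811) and -0.37 without library 11 (adjusted p = 3.31e-05), so the direction turned. In treated cells it was -0.28 with 16 libraries (edgeR adjusted p = 0.377) and -0.28 without library 11 (adjusted p = 2.77e-04). Cytosolic Gpx1 held 159.6 to 209 CPM against 119.5 to 141 CPM without and 258 CPM in library 11. Its log2 difference was -0.17 with 16 libraries (edgeR adjusted p = 0.466) and -0.49 without library 11 (adjusted p = 6.63e-05), so its direction did not turn. In treated cells Gpx1 ran at 161 to 168 against 120.4 to 132 CPM, and the log2 difference was -0.37 with 16 libraries (edgeR adjusted p = 0.132) and -0.37 without library 11 (adjusted p = 3.42e-04). Gpx8, of the endoplasmic reticulum, was higher in treated empty-vector cells (38.7 to 42.2 against 31.2 to 34.3 CPM) by 0.30 ± 0.0535 (SE, edgeR adjusted p = 3.56e-04) on the log2 scale; untreated, the difference was 0.12 with 16 libraries (edgeR adjusted p = 0.0777) and 0.11 without library 11 (adjusted p = 0.0176). The secreted Gpx3 was counted 3, 6, 3 and 5 times in untreated lentivirus libraries and 11, 7, 2 and 7 times in untreated empty-vector libraries. Treated libraries counted it 4, 4, 1 and 3 times against 8, 11, 11 and 11 times, which do not overlap, and the fitted log2 difference was 1.71 ± 0.409 (SE, edgeR adjusted p = 0.00353). For Prdx5, found in several compartments, library 11 held 117 CPM against 73.3 to 77.2 in libraries 9, 10 and 12, and the untreated log2 difference was 0.30 with 16 libraries (edgeR adjusted p = 0.0512) and 0.11 without library 11 (adjusted p = 0.0234). The treated difference was 0.10 with 16 libraries (edgeR adjusted p = 0.567) and 0.10 without library 11 (adjusted p = 0.0276). For Prdx6, which also acts on phospholipids, the untreated difference was -0.03 with 16 libraries (edgeR adjusted p = 0.613) and -0.00 without library 11 (adjusted p = 0.953) and the treated one -0.03 (edgeR adjusted p = 0.68).

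The 3 superoxide dismutases turn superoxide into hydrogen peroxide, and Sod2 was lower in empty-vector cells in both comparisons. Sod3, the secreted enzyme (mm10 chromosome 5, 52363791 to 52371418), held 4.89, 4.54, 4.44 and 4.03 CPM in untreated and 4.61, 4.85, 4.28 and 4.68 CPM in treated lentivirus libraries. Empty-vector libraries held 0.953, 0.980, 5.65 and 0.911 CPM untreated and 1.1, 0.915, 0.937 and 0.777 CPM treated. Library 11 was thus the highest of all 16 libraries for Sod3, and the other 7 empty-vector libraries lay below every lentivirus library. The untreated log2 difference was -1.10 ± 0.471 (SE, edgeR adjusted p = 0.063) with library 11 and -2.24 ± 0.120 (SE, edgeR adjusted p = 1.70e-12) without it, and the treated one was -2.30 ± 0.492 (SE, edgeR adjusted p = 0.00159). Mitochondrial Sod2 ran at 73.7, 71.2, 69.7 and 67.9 CPM against 54.7, 52.3, 67.3 and 58.8 CPM untreated and 70.3 to 73.9 against 51.4 to 57.9 CPM treated, without overlap. It fell by 0.28 ± 0.0729 (SE, edgeR adjusted p = 0.00553) untreated and 0.43 ± 0.0729 (SE, edgeR adjusted p = 2.48e-04) treated on the log2 scale. Cytosolic Sod1 held 164 to 177 CPM in untreated lentivirus libraries, 152 to 163 in libraries 9, 10 and 12 and 271 in library 11. Its log2 difference was 0.12 with 16 libraries (edgeR adjusted p = 0.475) and -0.12 without library 11 (adjusted p = 0.00305), and -0.06 with 16 libraries (edgeR adjusted p = 0.769) and -0.06 without library 11 (adjusted p = 0.0741) in treated cells.

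In the thioredoxin system the cytosolic arm was higher in empty-vector cells. Txnrd1, the cytosolic thioredoxin reductase (mm10 chromosome 10, 82833951 to 82897712), held 89.4, 80.1, 90.4 and 87.7 CPM in untreated lentivirus libraries and 132, 129, 248 and 125 CPM in untreated empty-vector libraries. Treated libraries held 84.1, 82.6, 87.8 and 84.6 and 122, 126, 126 and 128 CPM. All 8 empty-vector libraries lay above all 8 lentivirus libraries, with library 11 far above the rest. The log2 difference was 0.87 ± 0.170 (SE, edgeR adjusted p = 7.12e-04) untreated, 0.57 ± 0.0380 (SE, edgeR adjusted p = 5.21e-11) untreated without library 11, and 0.56 ± 0.169 (SE, edgeR adjusted p = 0.0146) treated. Its substrate Txn1 ran at 248 to 271 against 301 to 480.4 CPM untreated, with library 11 highest, and at 235 to 252 against 297 to 339 CPM treated. In FPKM library 11 was not the highest for Txn1, at 412 against 431 in library 10. Txn1 rose by 0.48 ± 0.110 (SE, edgeR adjusted p = 0.00226) and 0.37 ± 0.110 (SE, edgeR adjusted p = 0.014) on the log2 scale. Over single libraries left out, its untreated log2 difference ran from 0.32 to 0.56. Sulfiredoxin, Srxn1 (mm10 chromosome 2, 152105516 to 152111376), repairs overoxidised peroxiredoxins. It held 33.6, 34.0, 32.9 and 33.3 CPM in untreated lentivirus libraries and 49.5, 46.3, 31.6 and 51.4 CPM in untreated empty-vector libraries, so library 11 alone lay below the lentivirus libraries, and 31.9 to 33.5 against 47.5 to 50.7 CPM in treated cells. Srxn1 rose by 0.42 ± 0.112 (SE, edgeR adjusted p = 0.00645) untreated, 0.55 ± 0.0385 (SE, edgeR adjusted p = 9.94e-11) untreated without library 11, and 0.58 ± 0.112 (SE, edgeR adjusted p = 7.47e-04) treated.

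Txnrd2 was lower in untreated empty-vector cells, while the calls on Txnip and Txnrd3 depended on the libraries and settings used. Txnrd2, the mitochondrial reductase, held 29.3, 28.5, 28.1 and 28.7 CPM in untreated lentivirus libraries and 20.4, 20.5, 7.44 and 19.0 CPM in untreated empty-vector libraries, of which library 11 was the lowest. Treated libraries ran at 25.9 to 28.3 against 19.1 to 20.1 CPM. For Txnrd2 the log2 difference was -0.76 with 16 libraries (edgeR adjusted p = 0.00923) and -0.52 without library 11 (adjusted p = 1.50e-09) in untreated cells and -0.46 with 16 libraries (edgeR adjusted p = 0.103) and -0.46 without library 11 (adjusted p = 2.11e-09) in treated cells. Mitochondrial Txn2 differed by 0.19 with 16 libraries (edgeR adjusted p = 0.122) and by 0.04 without library 11 (adjusted p = 0.303), and in treated cells by 0.05 (adjusted p = 0.754). Txnip, which binds and inhibits thioredoxin, ran at 374 to 381 against 301 to 340.5 CPM, with library 11 at 121 CPM. The log2 difference was -0.49 with 16 libraries (edgeR adjusted p = 0.065) and -0.25 without library 11 (adjusted p = 6.50e-06). Without library 12 it was -0.63 (edgeR adjusted p = 0.0317). Txnrd3, a reductase that also acts on glutathione, held 20.8 to 22.6 against 15.4 to 16.8 CPM, with library 11 at 3.14 CPM. The log2 difference was -0.79 with 16 libraries (edgeR adjusted p = 0.0547) and -0.47 without library 11 (adjusted p = 4.96e-08). Without library 12 it was -0.95 (edgeR adjusted p = 0.0381). In treated cells the differences of Txnip and Txnrd3 were -0.31 and -0.53, with edgeR adjusted p = 0.266 and 0.218, or 9.81e-08 and 2.33e-09 without library 11.

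The methionine sulfoxide reductases, which use thioredoxin to repair oxidised methionine, included the deepest fall of the set, that of Msrb2. Msrb2, the mitochondrial enzyme (mm10 chromosome 2, 19371440 to 19394976), held 21.8, 21.6, 20.5 and 21.6 CPM in untreated and 21.4, 19.8, 18.7 and 20.5 CPM in treated lentivirus libraries. Empty-vector libraries held 3.74, 3.33, 1.92 and 3.16 CPM untreated and 3.04, 3.71, 3.11 and 3.69 CPM treated, far below all lentivirus libraries, with library 11 lowest. The log2 difference was -2.81 ± 0.160 (SE, edgeR adjusted p = 4.80e-09) untreated, -2.65 ± 0.0779 (SE, edgeR adjusted p = 1.53e-16) without library 11, and -2.57 ± 0.158 (SE, edgeR adjusted p = 1.09e-08) treated. Msrb3, of the endoplasmic reticulum (mm10 chromosome 10, 120781096 to 120899101), held 17.6, 18.2, 18.1 and 17.8 CPM against 5.84, 5.19, 3.63 and 5.02 CPM untreated, and 18.4, 18.3, 17.5 and 17.8 CPM against 6.14, 5.40, 6.47 and 6.09 CPM treated. These groups did not overlap either, and the log2 difference was -1.86 ± 0.117 (SE, edgeR adjusted p = 1.19e-08) untreated and -1.58 ± 0.116 (SE, edgeR adjusted p = 5.65e-08) treated. Msra, which acts on the other stereoisomer, ran at 4.42 to 4.52 against 2.54 to 4.11 CPM untreated. Its log2 difference was -0.33 with 16 libraries (edgeR adjusted p = 0.0412) and -0.20 without library 11 (adjusted p = 0.0349). The 16-library call on Msra was also lost without library 1, 2, 3, 4, 6, 7, 8, 12, 13, 14, 15 or 16 (log2 -0.34 to -0.32), and in treated cells the difference was -0.19 with 16 libraries (edgeR adjusted p = 0.264) and -0.19 without library 11 (adjusted p = 0.037).

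**Figure D2:**
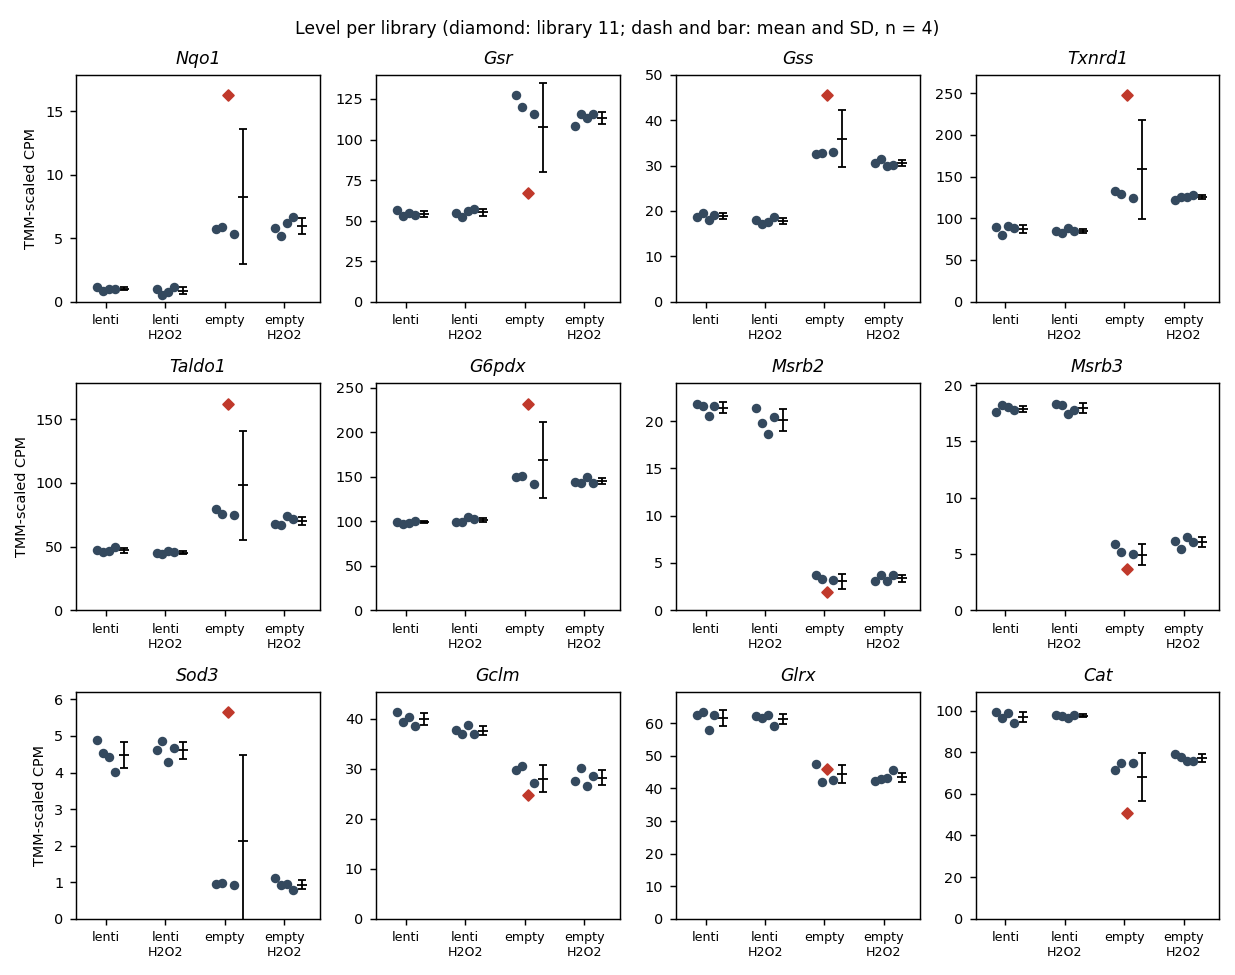
TMM-scaled CPM of 12 of the genes in each library, with bars at the mean and SD of each group of 4 and a diamond for library 11; each panel has its own linear axis, and the lower end of the untreated empty-vector bar of Sod3 runs below 0. Nqo1, Gsr, Gss, Txnrd1, Taldo1 and G6pdx sit higher and Msrb2, Msrb3, Gclm, Glrx and Cat lower in empty-vector libraries, and for Sod3 only library 11 leaves the low empty-vector cluster.

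In the glutathione system, the enzymes that finish and recycle glutathione were higher in empty-vector cells. Gsr, glutathione reductase (mm10 chromosome 8, 33652523 to 33698163), held 56.8, 52.7, 54.5 and 53.1 CPM in untreated lentivirus libraries and 127, 120.2, 67.2 and 116 CPM in untreated empty-vector libraries. Treated libraries held 54.8, 52.3, 56.1 and 56.9 and 108, 116, 113 and 116 CPM. All empty-vector libraries lay above all lentivirus libraries, with library 11 the nearest to them. Gsr rose by 0.99 ± 0.142 (SE, edgeR adjusted p = 5.13e-05) untreated, 1.16 ± 0.0392 (SE, edgeR adjusted p = 1.35e-15) without library 11, and 1.04 ± 0.142 (SE, edgeR adjusted p = 3.28e-05) treated, on the log2 scale. Gss, glutathione synthetase (mm10 chromosome 2, 155563181 to 155592810), held 18.6, 19.4, 18 and 19.2 CPM against 32.6, 32.8, 45.5 and 33.0 CPM untreated, and 17.9, 17.2, 17.6 and 18.7 CPM against 30.6, 31.5, 29.9 and 30.2 CPM treated. The groups did not overlap, and Gss rose by 0.93 ± 0.0966 (SE, edgeR adjusted p = 1.98e-06) untreated, 0.80 ± 0.0406 (SE, edgeR adjusted p = 7.33e-13) without library 11, and 0.78 ± 0.0963 (SE, edgeR adjusted p = 1.28e-05) treated. Exons of Gss overlap those of Acss2, Gssos1 and Gssos2 in the GENCODE vM21 annotation, and without known strandedness their reads cannot be told apart.

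Of the ligase that starts glutathione synthesis, 1 subunit was lower and 1 was not called with 16 libraries. Its modifier subunit Gclm (mm10 chromosome 3, 122245557 to 122270732) held 41.3, 39.4, 40.4 and 38.6 CPM in untreated lentivirus libraries and 29.7, 30.5, 24.8 and 27.1 CPM in untreated empty-vector libraries, and 37.7, 36.9, 38.8 and 37.0 against 27.6, 30.2, 26.6 and 28.6 CPM in treated cells. There was no overlap, and Gclm fell by 0.51 ± 0.0708 (SE, edgeR adjusted p = 3.55e-05) untreated and 0.41 ± 0.0707 (SE, edgeR adjusted p = 2.48e-04) treated on the log2 scale. The catalytic subunit Gclc (mm10 chromosome 9, 77754535 to 77794485) held 27.0, 28.1, 28.4 and 26.9 CPM against 25.0, 23.3 and 25.7 CPM in libraries 9, 10 and 12, but 95.8 CPM in library 11. Its log2 difference was 0.62 with 16 libraries (edgeR adjusted p = 0.153) and -0.16 without library 11 (adjusted p = 0.00538), so the direction turned with this library. In treated cells it was -0.16 with 16 libraries (edgeR adjusted p = 0.762) and -0.16 without library 11 (adjusted p = 0.00401). Glrx, the cytosolic glutaredoxin that removes glutathione from proteins (mm10 chromosome 13, 75839868 to 75850154), held 62.6, 63.4, 57.9 and 62.5 CPM against 47.5, 42.0, 46.0 and 42.5 CPM untreated, and 59.2 to 62.5 against 42.3 to 45.5 CPM treated. Glrx fell by 0.47 ± 0.0575 (SE, edgeR adjusted p = 1.06e-05) untreated and 0.50 ± 0.0575 (SE, edgeR adjusted p = 5.97e-06) treated, and its groups did not overlap. The mitochondrial Glrx2, Glrx3 and the mitochondrial Glrx5, the latter pair of iron-sulfur proteins, were not called in either vector comparison, with or without library 11: with 16 libraries the untreated log2 differences were -0.16, -0.23 and 0.46 and the treated ones 0.07, 0.04 and 0.13. Without library 11 they were -0.07, -0.12 and 0.06 untreated and 0.07, 0.04 and 0.13 treated, and library 11 held 50.8 CPM of Glrx5 against 20.3 to 24.1.

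Among the 6 NADPH-making and pentose phosphate enzymes, 4 were called higher and 0 called lower in untreated cells carrying the empty vector, with and without library 11, where 29% and 24.3% of all genes were called with 16 libraries and 37% and 37.3% without library 11. In treated cells 2 were higher and 0 lower with 16 libraries, and 4 and 0 without library 11, beside 22.1% and 20%, and 36.6% and 37.2%, of all genes. Taldo1, transaldolase of the non-oxidative branch (mm10 chromosome 7, 141392199 to 141402968), held 46.9, 45.6, 46.1 and 49.8 CPM in untreated lentivirus libraries and 79.5, 75.5, 162 and 74.8 CPM in untreated empty-vector libraries. Treated libraries held 44.6, 44, 46.7 and 45.7 and 67.4, 67.2, 73.9 and 71.6 CPM. All empty-vector libraries lay above all lentivirus libraries, library 11 at about 2.12 times the mean of its group's other 3. Taldo1 rose by 1.06 ± 0.196 (SE, edgeR adjusted p = 4.53e-04) untreated, 0.70 ± 0.0406 (SE, edgeR adjusted p = 5.32e-12) without library 11, and 0.63 ± 0.194 (SE, edgeR adjusted p = 0.017) treated. G6pdx, glucose phosphate dehydrogenase, the entry to the oxidative branch (mm10 chromosome X, 74409483 to 74429194), held 99.5, 97.2, 98.3 and 100.3 CPM against 149, 151, 232 and 142 CPM untreated, and 99.5, 99.2, 104 and 103 CPM against 144, 142, 149.5 and 143 CPM treated. Its groups did not overlap, and it rose by 0.77 ± 0.119 (SE, edgeR adjusted p = 9.71e-05) untreated, 0.58 ± 0.0302 (SE, edgeR adjusted p = 1.21e-12) without library 11, and 0.51 ± 0.118 (SE, edgeR adjusted p = 0.00273) treated.

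Malic enzyme Me1 ran at 27.8 to 28.7 CPM in untreated lentivirus libraries, 33.5 to 35.3 in libraries 9, 10 and 12 and 55.7 in library 11, and the cytosolic isocitrate dehydrogenase Idh1 at 177 to 192, 202 to 222 and 503 CPM. Me1 rose by 0.49 with 16 libraries (edgeR adjusted p = 0.00608) and 0.29 without library 11 (adjusted p = 1.25e-05). For Idh1 the difference was 0.63 with 16 libraries (edgeR adjusted p = 0.0274) and 0.21 without library 11 (adjusted p = 7.58e-05). Its 16-library call was lost without library 2, 3 or 4 (log2 0.61 to 0.63). In treated cells Me1 differed by 0.22 with 16 libraries (edgeR adjusted p = 0.209) and 0.22 without library 11 (adjusted p = 1.31e-04), and Idh1 by 0.23 with 16 libraries (edgeR adjusted p = 0.436) and 0.23 without library 11 (adjusted p = 7.99e-06). Pgd, the oxidative enzyme after G6pdx, was not called: its untreated log2 difference was 0.20 with 16 libraries (edgeR adjusted p = 0.215) and -0.02 without library 11 (adjusted p = 0.622), with library 11 at 239 CPM against 143 to 146. Transketolase, Tkt, was not called either, at 553 ± 21.5 against 551 ± 25.9 CPM untreated (mean ± SD, n = 4) and 559 ± 15.3 against 547 ± 20.9 CPM treated. Within the non-oxidative branch, Taldo1 was thus called and Tkt was not. The difference between these genes was not tested.

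Among the 5 genes of the NRF2 circuit, Nqo1 had the largest rise of the 43 members in both vector comparisons, with and without library 11. Nqo1, a quinone reductase widely used as a readout of NRF2 (mm10 chromosome 8, 107388225 to 107403206), held 1.14, 0.860, 0.973 and 1.03 CPM in untreated and 0.960, 0.559, 0.789 and 1.15 CPM in treated lentivirus libraries. Empty-vector libraries held 5.70, 5.86, 16.3 and 5.30 CPM untreated and 5.83, 5.19, 6.16 and 6.64 CPM treated. Every empty-vector library lay above every lentivirus library, library 11 highest. Nqo1 rose by 3.04 ± 0.347 (SE, edgeR adjusted p = 5.76e-06) untreated, 2.49 ± 0.148 (SE, edgeR adjusted p = 8.61e-12) without library 11, and 2.78 ± 0.346 (SE, edgeR adjusted p = 1.37e-05) treated, on the log2 scale. Nfe2l2, which encodes NRF2, ran at 187 to 200 CPM in untreated lentivirus libraries, 188 to 201 in libraries 9, 10 and 12 and 286 in library 11. Its log2 difference was 0.16 with 16 libraries (edgeR adjusted p = 0.212) and -0.00 without library 11 (adjusted p = 0.911), and -0.01 with 16 libraries (edgeR adjusted p = 0.946) and -0.01 without library 11 (adjusted p = 0.762) in treated cells. Keap1, which marks NRF2 for degradation, differed by -0.03 with 16 libraries (edgeR adjusted p = 0.831) and 0.10 without library 11 (adjusted p = 0.0427), and in treated cells by 0.00 (edgeR adjusted p = 0.985). The repressor Bach1 ran at 63.9 to 68.0 against 72.4 to 99.9 CPM in untreated cells, where it rose by 0.30 with 16 libraries (edgeR adjusted p = 0.00795) and 0.19 without library 11 (adjusted p = 2.53e-04). In treated cells it differed by 0.09 with 16 libraries (edgeR adjusted p = 0.441) and 0.09 without library 11 (adjusted p = 0.0388). Park7, the redox-sensitive protein known for its role in Parkinson disease, differed by -0.27 with 16 libraries (edgeR adjusted p = 0.0672) and -0.12 without library 11 (adjusted p = 0.00665), with library 11 at 94.4 CPM against 147 to 156. In treated cells Park7 differed by -0.11 with 16 libraries (edgeR adjusted p = 0.476) and -0.11 without library 11 (adjusted p = 0.00709).

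**Figure D3:**
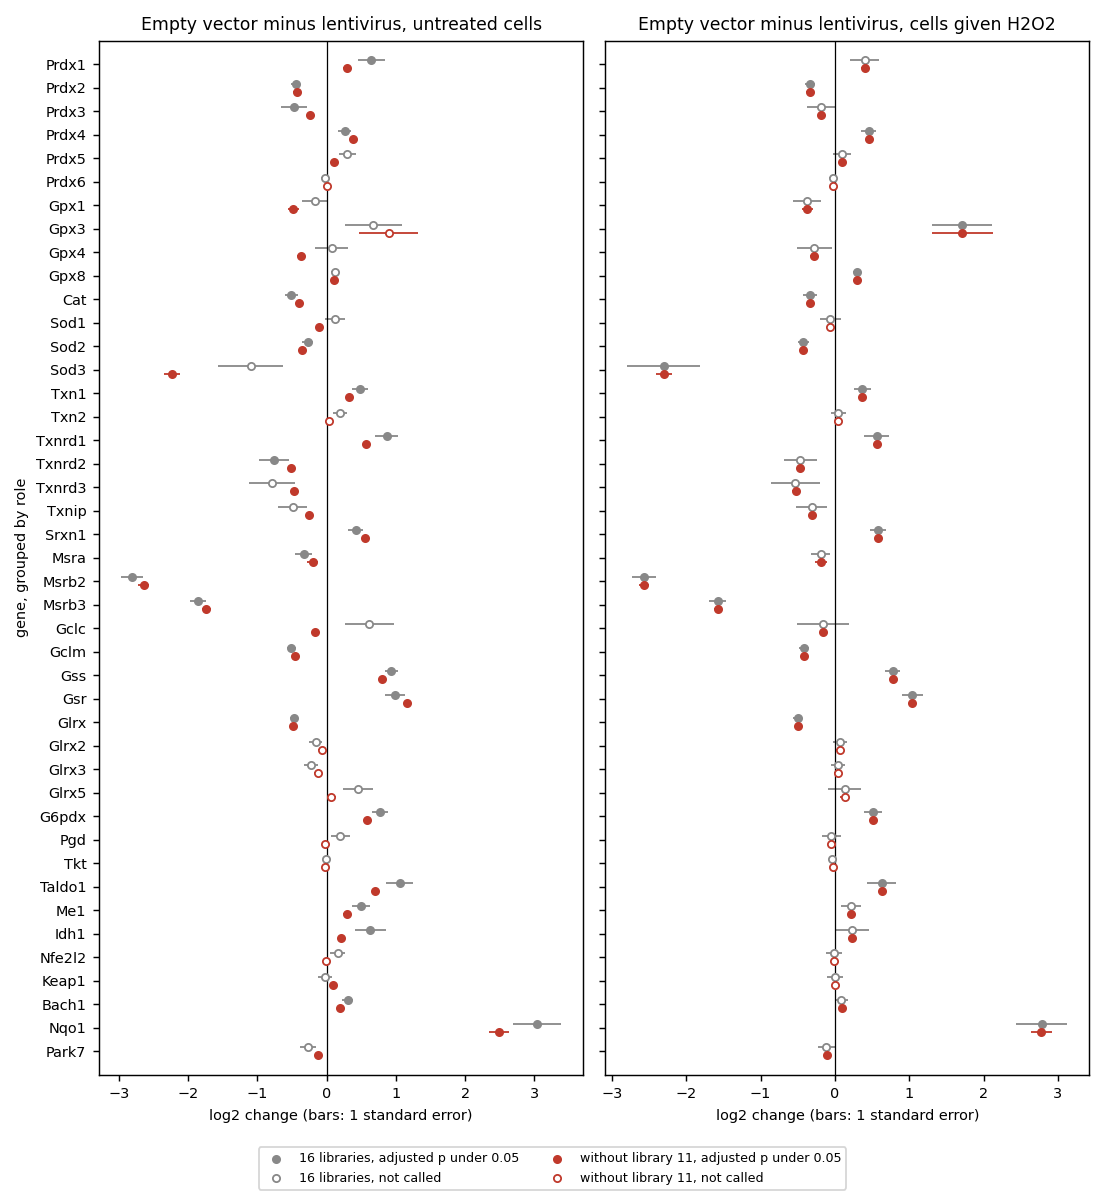
Log2 change, empty vector minus lentivirus, with its standard error for each of the 43 genes by role, in untreated and treated cells, with 16 libraries (grey) and without library 11 (red), filled where called. Nqo1, Gss and Gsr lie to the right and Msrb2, Msrb3 and Sod3 to the left, and leaving out library 11 moves Gpx4, Gclc and Sod3 in untreated cells.

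The members known mainly from mitochondria, Prdx3, Sod2, Txn2, Txnrd2, Msrb2, Glrx2 and Glrx5, included 0 called higher and 4 called lower in untreated cells, both with and without library 11. Of all genes tested, 29% were called higher and 24.3% lower with 16 libraries, and 37% and 37.3% without library 11. In treated cells 0 were higher and 2 lower with 16 libraries (Sod2 and Msrb2), beside 22.1% and 20% of all genes, and 0 and 4 without library 11, beside 36.6% and 37.2%. The share of counts from mitochondrial mRNAs was 1.08% to 1.43% in libraries 9, 10 and 12 and 2.41% in library 11; among untreated lentivirus libraries it ran from 1.30% to 3.38%. Its part in these differences was not tested. By exons in GENCODE vM21, 9 of the 43 members overlap another gene of the count table, among them Prdx2, Txnrd2, Gclm, G6pdx and Keap1, and Gpx4 has a named pseudogene, so their counts are uncertain to that extent.

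Other genes of the same pathways were read from a list of 59, of which 53 were tested. In untreated cells 21 (39.6%) were higher and 16 (30.2%) lower with 16 libraries, beside 29% and 24.3% of all genes, and 23 (43.4%) and 20 (37.7%) without library 11, beside 37% and 37.3%. In treated cells 16 (30.2%) were higher and 13 (24.5%) lower with 16 libraries, beside 22.1% and 20% of all genes, and 25 (47.2%) and 19 (35.8%) without library 11, beside 36.6% and 37.2%. The counts of single lists that follow stand beside these same shares of all genes. Of 14 genes of glutathione supply and turnover, 8 were higher and 1 lower untreated (9 and 1 without library 11), and 7 and 0 treated (11 and 0). The cystine importer Slc7a11 stood at 1.90 ± 0.343 against 6.78 ± 2.49 CPM untreated and 2.24 ± 0.535 against 7.22 ± 1.38 CPM treated, with means ± SD of 4 libraries and lentivirus first. Its log2 difference was 1.83 ± 0.265 (SE, edgeR adjusted p = 5.35e-05) untreated and 1.68 (adjusted p = 1.14e-04) treated. Cth, which makes cysteine by transsulfuration, stood at 1.40 ± 0.161 against 10.9 ± 3.11 CPM untreated and 1.31 ± 0.337 against 12.5 ± 1.25 CPM treated, a log2 difference of 2.96 ± 0.229 (SE, edgeR adjusted p = 1.07e-07) untreated and 3.25 (adjusted p = 4.59e-08) treated. Chac1, which degrades glutathione, also rose, at 1.25 ± 0.173 against 6.82 ± 1.42 CPM untreated and 1.39 ± 0.163 against 7.49 ± 1.05 CPM treated, by 2.45 ± 0.172 (SE, edgeR adjusted p = 3.71e-08) untreated and 2.43 (adjusted p = 3.79e-08) treated. Genes of glutathione supply and of its breakdown were thus both among those that rose.

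Of 14 other NADPH-supplying genes, 4 were called higher and 5 called lower in untreated cells (5 and 6 without library 11), and 4 and 5 in treated cells (5 and 8). The mitochondrial malic enzymes split: Me2 stood at 29.9 ± 0.773 against 68.4 ± 13.5 CPM untreated and 28.2 ± 0.539 against 70.5 ± 3.75 CPM treated and rose by 1.19 ± 0.114 (SE, edgeR adjusted p = 9.35e-07) untreated and 1.32 (adjusted p = 3.39e-07) treated. Me3 stood at 19.7 ± 0.681 against 2.20 ± 1.13 CPM untreated and 19.8 ± 1.27 against 2.93 ± 0.228 CPM treated and changed by -3.15 ± 0.330 (SE, edgeR adjusted p = 2.46e-06) untreated and -2.75 (adjusted p = 7.90e-06) treated. The mitochondrial folate enzyme Aldh1l2 stood at 7.80 ± 0.101 against 57.2 ± 17.5 CPM untreated and 9.28 ± 2.48 against 60.9 ± 11.8 CPM treated and rose by 2.88 ± 0.234 (SE, edgeR adjusted p = 1.87e-07) untreated and 2.71 (adjusted p = 3.18e-07) treated. Nnt, the proton-driven transhydrogenase of mitochondria, stood at 90.5 ± 1.09 against 64.9 ± 4.91 CPM untreated and 94.8 ± 0.855 against 61.1 ± 3.04 CPM treated and changed by -0.48 ± 0.0577 (SE, edgeR adjusted p = 8.99e-06) untreated and -0.63 (adjusted p = 5.57e-07) treated. Library 11 held 48.5 CPM of Me2 against 70.8 to 77.4 in the rest of its group, and 0.544 CPM of Me3 against 2.42 to 3.06. For Aldh1l2 it held 39.7 against 52.6 to 81.5 CPM, and for Nnt 72.0 against 61.5 to 64.5 CPM. Of 13 other genes around NRF2, 6 were higher and 4 lower untreated (6 and 5 without library 11), and 2 and 4 treated (6 and 5). Haem oxygenase, Hmox1, stood at 21.5 ± 0.519 against 48.3 ± 23.8 CPM untreated and 22.8 ± 0.754 against 36.8 ± 5.58 CPM treated and rose by 1.17 ± 0.232 (SE, edgeR adjusted p = 7.85e-04) untreated and 0.69 (adjusted p = 0.0253) treated. Library 11 held 83.6 CPM against 33.2 to 41.4. The sestrins, which regulate nutrient signalling, split: Sesn2 changed by 2.22 ± 0.441 (SE, edgeR adjusted p = 7.90e-04) untreated and 1.22 (adjusted p = 0.0334) treated, or 1.24 untreated without library 11, and Sesn3 by -2.83 ± 0.143 (SE, edgeR adjusted p = 1.51e-09) untreated and -3.30 (adjusted p = 3.77e-10) treated. Of 12 further genes of thioredoxin fold and reduction, 3 were higher and 6 lower untreated (3 and 8 without library 11), and 3 and 4 treated (3 and 6). Among them was the selenoprotein Selenow at 220.3 ± 20.6 against 113 ± 27.9 CPM untreated and 214 ± 9.96 against 97.4 ± 5.63 CPM treated, a log2 difference of -0.96 ± 0.129 (SE, edgeR adjusted p = 2.57e-05) untreated and -1.14 (adjusted p = 5.66e-06) treated. Library 11 held 155 CPM of Selenow against 95.9 to 102 in the rest of its group, and 34.1 CPM of Sesn3 against 21.1 to 25.4.

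H2O2 for 24 h left the set without a called gene. By edgeR's quasi-likelihood test, 0 of 43 members were called in empty-vector cells, in lentivirus cells or for the difference of their responses, with 16 libraries or without library 11. Over all genes, 0% were called in each with 16 libraries. Without library 11, 0.123% were higher and 0.116% lower in empty-vector cells, 0% and 0% in lentivirus cells, and 0.0685% and 0.123% for the difference. At least 2-fold, 0.0205% were higher in empty-vector cells and 0.0137% for the difference, and 0% otherwise. At an unadjusted p under 0.05, of 43 members, 6 counted in empty-vector cells (5 without library 11), 1 in lentivirus cells (9) and 1 for the difference (2). All genes counted 2120 (1994), 255 (2135) and 859 (2391), of 14445 tested with 16 libraries and 14602 without library 11. DESeq2 and limma voom with library weights likewise called 0 members. Over all genes they called 27 and 63 higher and 11 and 35 lower in empty-vector cells, 0 and 2 higher and 1 and 22 lower in lentivirus cells, and 1 and 10 higher and 14 and 11 lower for the difference. A fit on the lentivirus groups alone called 1 member, Prdx1, at a log2 change of -0.15 (edgeR adjusted p = 0.0478), with 490.5, 476, 468 and 512 CPM untreated and 439.8, 423, 449.5 and 442 CPM treated. Over all 13727 genes of that fit, 20 were called higher and 101 lower. Treated and untreated libraries overlapped for 39 members in empty-vector cells; Cat was higher and Txn2, Gss and Taldo1 lower without overlap, where 3.25% and 3.68% of all genes behaved so (5.48% and 7.31% without library 11). In lentivirus cells 38 overlapped; Txnip was higher and Prdx1, Gpx8, Glrx3 and Glrx5 lower, beside 4.6% and 6.62% of all genes.

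The members with the smallest unadjusted p without library 11 had small values, and none passed the adjusted test. In empty-vector cells Taldo1 held 79.5, 75.5 and 74.8 CPM in untreated libraries 9, 10 and 12 and 67.4, 67.2, 73.9 and 71.6 CPM with H2O2, a log2 difference of -0.13 ± 0.0402 (SE, edgeR adjusted p = 0.139), or -0.48 with library 11 (edgeR adjusted p = 0.339). For Gss it was -0.10 ± 0.0396 (SE, edgeR adjusted p = 0.248) and for Msrb3 0.17 ± 0.0687 (SE, edgeR adjusted p = 0.261). In lentivirus cells Gpx8 held 35.2, 36.0, 35.3 and 35.4 CPM untreated and 32.5, 34.3, 31.2 and 32.2 CPM with H2O2, a log2 difference of -0.13 ± 0.0368 (SE, edgeR adjusted p = 0.184). The value was -0.19 ± 0.0568 (SE, edgeR adjusted p = 0.187) for Glrx3 and -0.17 ± 0.0614 (SE, edgeR adjusted p = 0.227) for Glrx5. The treated libraries lay below the untreated ones without overlap for all 3. For the difference, the response of empty-vector minus that of lentivirus cells, the values were 0.19 ± 0.0537 (SE, edgeR adjusted p = 0.104) for Gpx8, -0.11 ± 0.0538 (SE, edgeR adjusted p = 0.298) for Gsr and 0.17 ± 0.0837 (SE, edgeR adjusted p = 0.344) for Glrx3. With library 11 the Gsr value was 0.06 (edgeR adjusted p = 0.892), of the opposite sign. Leaving aside the rarely counted Gpx3, the log2 differences without library 11 ran from -0.13 (Taldo1) to 0.17 (Msrb3) in empty-vector cells, from -0.20 (Nqo1) to 0.09 (Txnip) in lentivirus cells, and from -0.11 (Gsr) to 0.29 (Nqo1) for the difference. The H2O2 and vector comparisons share libraries, so no overlap between them is given.

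**Figure D4:**
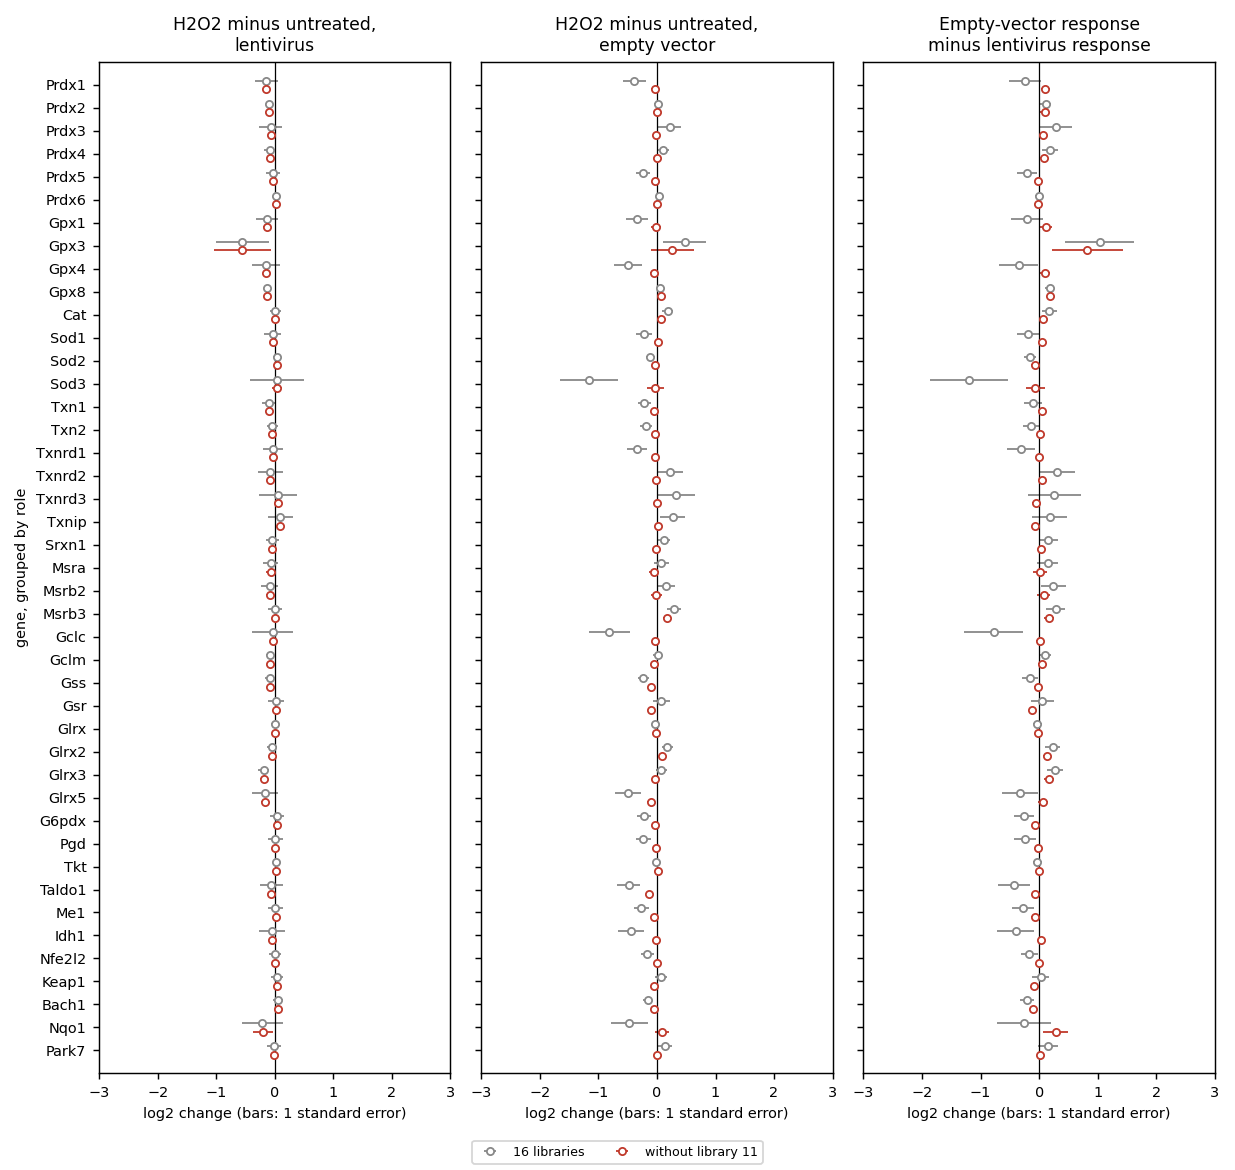
Log2 change with H2O2 and its standard error for each of the 43 genes, in lentivirus and in empty-vector cells, without and with library 11. A further panel shows the empty-vector response minus the lentivirus response. Without library 11 nearly all genes lie close to 0, apart from the rarely counted Gpx3; with it the empty-vector values spread, Sod3 to -1.16 and Gclc to -0.81, and 0 genes were called either way.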

How the data were processed

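RNA was measured in 16 libraries of 6DT1 cells. The submitters' processing notes name cutadapt for trimming, STAR for alignment, RSEM for quantification and the build mm10, with versions, annotation and strand setting not given in the sources used here. A deposited table of counts holds whole numbers for 25745 genes, which the authors may have rounded from the estimated counts RSEM gives. The authors' deposited FPKM values correct for gene length and depth. Gene positions came from GENCODE vM21 (mm10).

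Groups came from the sample titles. The members, gene lists, tests and alternatives were chosen with earlier results of these data known. Counts were tested with the quasi-likelihood test of edgeR 4.0.16 (R 4.3.3): TMM scaling, filterByExpr, and 1 robust fit over 16 libraries with a coefficient per group, Benjamini-Hochberg over all genes tested, and an adjusted p under 0.05 for a call. The standard error of a log2 change is its size over the square root of the F statistic. There were 5 comparisons: the vectors (empty minus lentivirus) without and with H2O2, treatment (H2O2 minus untreated) within each vector, and the difference between the treatment responses. CPM values are TMM-scaled. Per role, the members described in full were mainly those with the largest change among called members at or above a mean log2 CPM of 2, and others of the list are given as values; in the H2O2 comparisons, with 0 calls, these were the 3 of smallest unadjusted p without library 11.

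The alternatives comprised DESeq2 1.42.0, RLE size factors, no filter, 10 CPM in 4 libraries, the compared groups alone, limma 3.58.1 on log2(FPKM + 1) or log2(FPKM + 0.1) for genes at 0.5 FPKM in 4 libraries, log2(FPKM + 1) unfiltered, voom with library weights, and leaving out each library. The log2(FPKM + pseudocount) scale understates changes of low genes. No pair of libraries in a group had counts equal within sampling noise (lowest chi-square per degree of freedom 4.91). Promoter sequences are RefSeq's. Figures were drawn with matplotlib 3.10.9.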

Additional observations from a re-analysis of the deposited data

Results flagged for a closer look

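Each member's level was screened in each group of 4 for a library whose gap to its nearest neighbour exceeded Dixon's critical share of the group's range. Chance alone marks about 1 in 20 groups. Of 172 groups, 29 were marked, and in 23 of these the library was library 11 of the untreated empty-vector cells.

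Library 11 was the highest of its group, against the range of libraries 9, 10 and 12, for peroxide-removing enzymes and dismutases: Prdx1 (1252 CPM against 544 to 623), Prdx5 (117 CPM against 73.3 to 77.2), Gpx1 (258 CPM against 119.5 to 141), Gpx4 (637 CPM against 241 to 276), Sod1 (271 CPM against 152 to 163) and Sod3 (5.65 CPM against 0.911 to 0.980). In the thioredoxin and glutathione systems it was highest for Txn2 (168 CPM against 116 to 118), Txnrd1 (248 CPM against 125 to 132), Gclc (95.8 CPM against 23.3 to 25.7), Gss (45.5 CPM against 32.6 to 33.0) and Glrx5 (50.8 CPM against 20.3 to 24.1). Among NADPH-making and pentose phosphate enzymes it was highest for G6pdx (232 CPM against 142 to 151), Pgd (239 CPM against 143 to 146), Taldo1 (162 CPM against 74.8 to 79.5), Me1 (55.7 CPM against 33.5 to 35.3) and Idh1 (503 CPM against 202 to 222), and in the NRF2 circuit for Nfe2l2 (286 CPM against 188 to 201) and Nqo1 (16.3 CPM against 5.30 to 5.86). It was the lowest for Prdx3 (40.5 CPM against 92.9 to 97.5), Cat (50.9 CPM against 71.4 to 75.0), Txnrd2 (7.44 CPM against 19.0 to 20.5), Txnrd3 (3.14 CPM against 15.4 to 16.8) and Park7 (94.4 CPM against 147 to 156). These CPM depend on the scaling, as the TMM factor of library 11 was 0.721, against 0.986 to 1.04 elsewhere. In FPKM it was the lowest of its group for Gss (18.95 against 19.43 to 20.51). It lay within the range for Txn2 (113.37 against 112.85 to 114.51) and Nfe2l2 (91.01 against 85.64 to 92.04). For the other genes named as highest it stayed the highest in FPKM. Library 11 also held the highest share of structural RNA, 0.727% of counts. The part of that in these levels was not tested.

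Outside the untreated empty-vector cells, 6 of 129 groups were marked. In untreated lentivirus cells, library 2 was lowest for Prdx3 (110.1 CPM against 115 to 115) and library 3 lowest for Glrx (57.9 against 62.5 to 63.4). In treated empty-vector cells, library 16 was highest for Prdx3 (98.6 CPM against 93.6 to 94.0) and lowest for Txn2 (109.8 against 115 to 116) and Tkt (515 against 553 to 560.1), and library 14 was lowest for Me1 (31.5 against 33.6 to 33.9).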

How the results depend on the processing

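No paired analysis was possible because no library number is shared by groups. Leaving out each library in turn gave 11 to 16 members higher (13 with all) and 8 to 18 lower (10) in untreated cells, 11 to 16 higher (11) and 8 to 17 lower (8) in treated cells, and 0 in the H2O2 comparisons and the difference; the highest counts are those without library 11. Over all genes, leaving out library 11 gave 5409 higher and 5449 lower untreated (4184 and 3516 with it), 5347 and 5432 treated (3189 and 2890), 18 and 17 for H2O2 in empty-vector cells (0 and 0), and 10 and 18 for the difference (0 and 0). A fit on the compared groups alone called 7 of 42 members higher and 6 lower untreated, beside 2430 and 1996 of 13843 genes. In treated cells it called 16 and 17 of 42, beside 5183 and 5308 of 13963 genes. With H2O2 in lentivirus cells it called 0 and 1 of 42, beside 20 and 101 of 13727 genes. Voom with library weights called 16 of 43 higher and 17 lower untreated, beside 5410 and 5436 of 14445 genes. Treated, it called 17 and 16, beside 5414 and 5502. Vector values of single members were followed for those called with 16 libraries or without library 11. Leaving out a library other than 11 kept their direction and call in 470 of 510 cases untreated and 495 of 495 treated.

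Direction turned in the untreated vector comparison for Gpx4, from 0.07 to -0.1525 on log2(FPKM + 1) with and without a filter, -0.1529 on log2(FPKM + 0.1) and -0.3532 with voom (-0.3724 to 0.2165 over libraries left out). Gpx8 went from 0.12 to -0.0045 on log2(FPKM + 1), with and without a filter, and -0.0048 on log2(FPKM + 0.1). Sod1 went from 0.12 to -0.0201 on all 3 FPKM scales and -0.1194 with voom (-0.1161 to 0.2076 over libraries left out). Gclc went from 0.62 to -0.1736 with voom (-0.1641 to 0.8173), Keap1 from -0.03 to 0.1085 with voom (-0.1065 to 0.0952). For the difference of responses, Gsr went from 0.06 to -0.1359 with voom (-0.1146 to 0.147). The turns in single libraries left out were those of library 11; the cause was not tested. On log2(FPKM + 1), the untreated calls on Prdx3 (-0.64), Prdx4 (0.15), Srxn1 (0.26) and Msra (-0.34) and the treated calls on Cat (-0.31), Gclm (-0.20) and Prdx4 (0.46) were not made. DESeq2 gave adjusted p-values for 42 members, and for 26 in the difference of responses. Depth limits only the rarest members: Gpx3 was counted at most 11 times in a library.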
